A study of Mus musculus with 16 samples.

Results

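The oligoadenylate synthetase (OAS) family of the mouse was represented by 8 genes, Oas1a, Oas1b, Oas1c, Oas1g, Oas2, Oas3, Oasl1 and Oasl2, taken by symbol from a table of read counts for 55416 genes. They were followed in erythroblasts of embryos carrying a deletion of the promoter of Nprl3, a subunit of the GATOR1 complex that restrains mTORC1. The deletion was constitutive, on a C57BL/6J background, and therefore present in every cell of the embryo. S1 and S3 erythroblasts were sorted by Ter119 and CD71 from the foetal liver at E13.5, S1 being the less mature. Of 8 embryos, 4 were wildtype (WT; embryos 1 and 5 female, 0 and 8 male), 2 heterozygous (Nprl3+/-; embryos 3 and 4, male) and 2 homozygous (Nprl3-/-; embryo 2 female, embryo 9 male). Each embryo gave 1 library per stage, 16 in all.

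OAS enzymes bind double-stranded RNA and join ATP into chains of 2′-5′-linked oligoadenylate. These chains are a second messenger of the antiviral response, and interferon switches most of the family on. Oas1a, Oas1g, Oas2 and Oas3 encode active synthetases. Oas1b restricts flaviviruses but is truncated in C57BL/6 mice, Oas1c lacks synthetase activity, Oasl2 is an active OAS-like enzyme, and Oasl1 is an inactive OAS-like protein that holds back translation of Irf7 mRNA.

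Total counts lay between 23331156 and 36035368 reads at S1 and between 20666044 and 37609502 at S3. Although some sample fields named an embryonic stem cell line, the erythroid genes were those of erythroblasts: Alas2, the erythroid haem synthesis enzyme, lay at 11.6 to 218 CPM (counts scaled to library size) at S1 and at 8760 to 12900 at S3, whereas the progenitor gene Kit fell from between 57.9 and 120 to at most 0.667. Nprl3 itself was at 0.319 and 0.676 CPM in Nprl3-/- S1 cells against 22.6 to 32.6 in WT S1 cells. At S3 it was at 107 and 111 CPM in Nprl3-/- cells against 146 to 204 in WT cells, a log2 difference of -0.55 ± 0.19 (SE) that missed the threshold (adjusted p = 0.381, edgeR quasi-likelihood test, Benjamini-Hochberg). The α-globin enhancers lie inside Nprl3 and give rise to transcripts that start within the gene. A count over the whole gene cannot separate these from mRNA of the deleted promoter, so the S3 value is no check of the deletion. Both WT males stood apart at S1. Summed over 10 granulocytic markers, led by myeloperoxidase (Mpo), their S1 libraries held 116 (embryo 8) and 204 CPM (embryo 0). The WT females held 1150 and 1380, the Nprl3+/- embryos 1560 and 1570, and the Nprl3-/- embryos 1620 and 1700. At S3 the same sum was 1.11 to 12.9 CPM in every library, highest in Nprl3-/- embryo 9.

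All 8 genes lie on chromosome 5 (mm39). Oasl2 (plus strand, chr5:115034997-115050295) and Oasl1 (plus strand, chr5:115061299-115075974) are neighbours, and the other 6 lie 5.8 Mb further along, within 177 kb. These are Oas2 (minus strand, chr5:120868398-120887918), Oas3 (minus strand, chr5:120891163-120915726), Oas1c (minus strand, chr5:120938259-120950579), Oas1b (plus strand, chr5:120950700-120962228), Oas1g (minus strand, chr5:121014205-121025676) and Oas1a (minus strand, chr5:121034319-121045584). Oas1c and Oas1b point away from each other with 120 bases between their annotated starts.

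RefSeq promoter windows (GRCm38.p6), reaching from 250 bases before to 50 after the start, were found for Oas1a, Oas1c, Oas1g, Oas3, Oasl1 and Oasl2. They were searched on both strands, overlaps allowed, for GAAANNGAAA, the core shared by interferon-stimulated response elements. It occurred in 4 of these 6 windows and in 3.44% of all 32851 windows. The 120 bases before the start are shown for those 4 genes on their own strand, because they hold the matched letters, in capitals; all were placed on mm39 by exact match (minus strand).
Oas1a: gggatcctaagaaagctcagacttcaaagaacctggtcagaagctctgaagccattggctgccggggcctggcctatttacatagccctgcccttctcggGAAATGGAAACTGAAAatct
Oas1g: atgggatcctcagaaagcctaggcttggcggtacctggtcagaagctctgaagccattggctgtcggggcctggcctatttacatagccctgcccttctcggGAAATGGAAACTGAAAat
Oas1c: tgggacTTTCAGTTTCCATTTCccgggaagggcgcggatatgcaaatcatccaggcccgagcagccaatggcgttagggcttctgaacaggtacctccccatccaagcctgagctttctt
Oas3: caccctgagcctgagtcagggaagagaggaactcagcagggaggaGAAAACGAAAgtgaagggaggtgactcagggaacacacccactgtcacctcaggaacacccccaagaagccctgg
The windows were chr5:121045589-121045708 for Oas1a, chr5:121025677-121025796 for Oas1g, chr5:120950580-120950699 for Oas1c and chr5:120915725-120915844 for Oas3. Oas1a and Oas1g carried the same 16-base stretch, made of 2 overlapping matches, within 20 bases of the start. Oas1c carried its reverse complement far from its own start. The 120 bases printed for Oas1c fill the whole gap between Oas1c and Oas1b, so the capitals begin 22 bases before the annotated start of Oas1b and read on the strand of Oas1b. On either strand, the 16-base stretch was found at 5 gene symbols: Oas1a, Oas1c, Oas1g, Apol9a and Apol9b. The window of Oas3 had 1 match, 75 bases before the start. Neither Oasl1 nor Oasl2 had a match, and neither did Abce1, Akap7 or Pde12.

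Near-identical copies limit the counts of some members. Of all 50-base words in the transcripts of Oas1g, 48.7% also occurred in another gene of the family, nearly all of them in Oas1a (48.3%). The share was 14.4% for Oas1a, 9.82% for Oas1c, 1.21% for Oas1b and 0% for Oas2, Oas3, Oasl1 and Oasl2. Pairs matching several places were left out of the counts, so Oas1g and Oas1a, Oas1g above all, are uncertain. Oas1c also shared 9.44% of its exonic bases with Gm43069 and Oasl1 shared 1.46% with Gm13822, and the counting did not use strand.

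In WT S1 cells the family was led by Oas1a, and in WT S3 cells by Oasl2. Levels are given as RPKM (CPM per kilobase of exon), so that genes can be compared. At S1 in WT, Oas1a stood at 1.96 ± 1.43 RPKM (SD, n = 4) and made up 51.3% to 74.2% of the summed level of the 8 genes. Its lowest library, at 0.512 RPKM, lay above the highest library of the next gene, Oas1b, at 0.468. Oas1b (0.37 ± 0.09), Oas1c (0.184 ± 0.109), Oasl2 (0.117 ± 0.062) and Oasl1 (0.113 ± 0.095) followed, each overlapping its neighbour. Oas1g, Oas2 and Oas3 had at most 6 counts in any WT S1 library. Oas1a, Oas1b and Oas1c also led in Nprl3+/- S1 cells, Oas1a at 2.93 ± 1.56 RPKM (SD, n = 2).

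At S3 in WT the order was Oasl2 (3.46 ± 1.01 RPKM, n = 4), Oas1b (1.20 ± 1.01) and Oas1a (0.747 ± 0.701), with overlapping neighbours throughout. Oasl2 made up 46.7% to 79.3% of the summed level in WT S3 cells and 3.18% to 8.07% in WT S1 cells. Oas1a made up 2.66% to 17.5% at S3. In Nprl3-/- cells Oas1a led at both stages, at 13.98 ± 6.44 RPKM (SD, n = 2) at S1 and 12.7 ± 5.27 at S3. There it took 75.1% and 77.8% of the sum at S1 and 44.7% and 50.9% at S3. The summed level was 12.1 and 24.7 RPKM in Nprl3-/- S1 cells against 0.999 to 4.59 in WT S1 cells, and 17.6 and 36.7 in Nprl3-/- S3 cells against 3.69 to 10.0 in WT S3 cells. Within each stage, the lower Nprl3-/- embryo lay above the highest WT embryo. In bulk RNA, fewer cells of a type and less RNA per cell cannot be told apart.

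**Figure D1:**
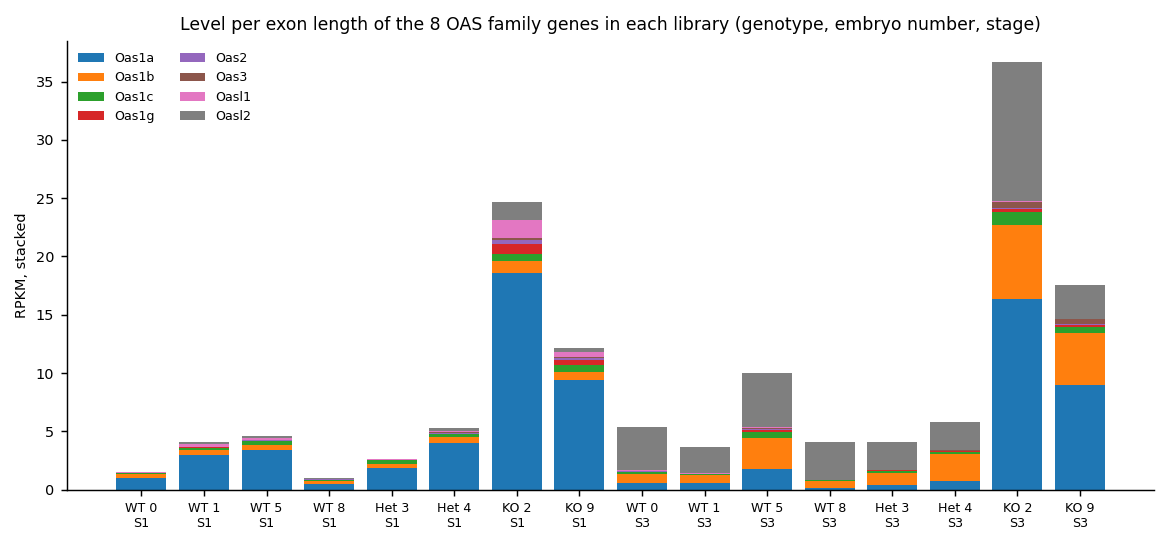
Stacked level per exon length (RPKM) of the 8 OAS family genes in each of the 16 libraries, named by genotype, embryo and stage. Oas1a fills most of the S1 bars, Oasl2 takes the largest share of the WT S3 bars, and the Nprl3-/- bars reach 12.1 to 36.7 RPKM.

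The question of which genes depend on Nprl3 was put to both stages. In S3 erythroblasts Oas1a was the member that passed the threshold, far higher in Nprl3-/- than in WT cells. It stood at 30.9 CPM (embryo 2) and 16.8 CPM (embryo 9) in Nprl3-/- cells. The WT libraries held 1.06 (embryo 0), 1.07 (embryo 1), 3.30 (embryo 5) and 0.207 CPM (embryo 8). The groups did not overlap, and the highest WT value, that of embryo 5, was still under the lower Nprl3-/- value. The log2 fold change was 4.07 ± 0.61 (SE; adjusted p = 0.0364, edgeR quasi-likelihood test, Benjamini-Hochberg over 11804 genes). Of all genes tested there, 66 were called, or 0.559%, and of 5 members tested 1 was called. An unadjusted p under 0.05 was found for Oas1a, Oas1b and Oasl2, for Oas1c and Oas3, which passed the filter only through their Nprl3-/- counts, and for 1006 of all genes tested.

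Oas3, the largest synthetase of the family, held 58 and 55 counts in Nprl3-/- S3 cells. WT S3 cells held 3 (embryo 0), 1 (embryo 1), 18 (embryo 5) and 3 counts (embryo 8). Again the groups did not overlap and embryo 5 was the highest WT library. The log2 fold change was 3.57 ± 0.68 (SE; edgeR adjusted p = 0.0748). Oas1b stood at 12.5 and 9.04 CPM in Nprl3-/- cells and at 1.48, 1.36, 5.40 and 1.31 CPM in WT embryos 0, 1, 5 and 8, with a log2 fold change of 2.20 ± 0.54 (edgeR adjusted p = 0.177). Oas3 was tested only through its Nprl3-/- counts, and embryo 5 was its highest WT library. Without WT embryo 5, Oas1a, Oas1b and Oas3 all passed, Oas3 at 4.72 ± 0.54 (edgeR adjusted p = 0.0209), in a fit that called 0.359% of all genes. Without embryo 0, 1 or 8 of the WT, or without Nprl3-/- embryo 2, no member did; where 1 Nprl3-/- library is left, it is assumed to vary like the WT libraries. Oas1a then differed by 3.59 to 3.93 with edgeR adjusted p between 0.0681 and 0.13.

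Oasl2 and Oas1c had overlapping groups at S3. Oasl2 reached 75.9 CPM in Nprl3-/- embryo 2 but 18.7 in embryo 9, inside the WT range of 14.2 to 29.7 CPM. Its log2 fold change was 1.15 ± 0.47 (edgeR adjusted p = 0.533) and turned to -0.18 without embryo 2, on the same assumption. Oas1c held 44 and 22 counts against 11, 3, 31 and 1 in WT embryos 0, 1, 5 and 8 (2.02 ± 0.80, edgeR adjusted p = 0.507). Oas1g, Oas2 and Oasl1 were too low at S3 for the count filter. Oas1g had 11 and 9 counts in Nprl3-/- libraries and 0 to 11 in WT libraries, and its CPM did not overlap between the groups. Oas2 had 4 and 2 counts against 0 to 5, and Oasl1 had 5 and 1 counts against 1 to 6, so no difference was detectable for them at this depth. Of the 3 members whose WT mean alone passed the filter at S3 (Oas1a, Oas1b and Oasl2), 2 had both Nprl3-/- libraries above all WT libraries, as did 6.57% of all genes tested.

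**Figure D2:**
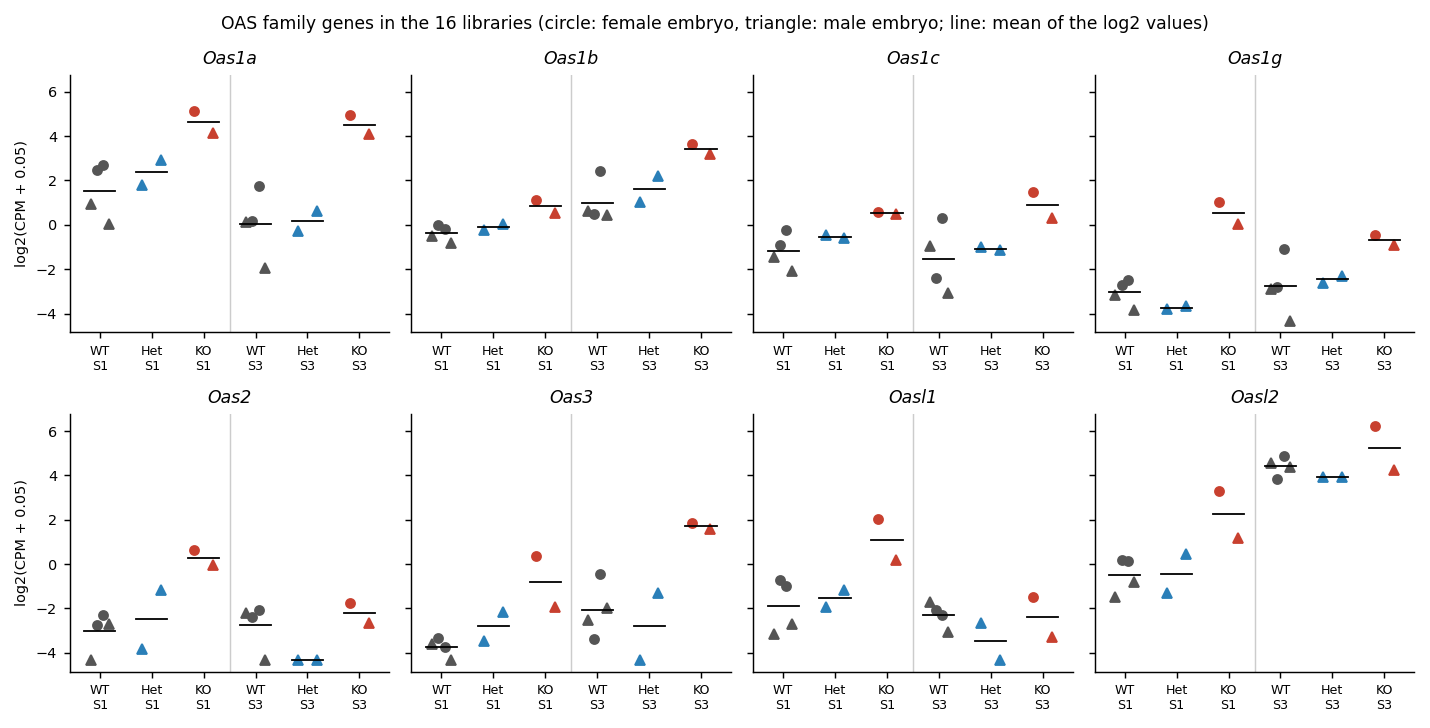
Level of each OAS family gene in the 16 libraries as log2 of CPM plus 0.05, by genotype and stage; circles are female and triangles male embryos, and lines are means of the log2 values. Both Nprl3-/- points of Oas1a and Oas1b lie above all WT points at S1 and at S3, as for 6.17% of all genes tested at S1 and 6.57% at S3. Oas1g and Oas3 show the same order, but their WT mean alone did not pass the filter. At S3 Oas1g had at most 11 counts in any library.

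At S1 edgeR called no member. Of the 5 members whose WT mean alone passed the filter (Oas1a, Oas1b, Oas1c, Oasl1 and Oasl2), 5 had both Nprl3-/- libraries above all WT libraries, against 6.17% of all genes tested. The same order held for Oas1g, Oas2 and Oas3, which passed the filter only through their Nprl3-/- counts. Oas1a stood at 34.9 (embryo 2) and 17.8 CPM (embryo 9). In WT S1 cells it stood at 1.84 (embryo 0), 5.55 (embryo 1), 6.42 (embryo 5) and 0.966 CPM (embryo 8). The WT females were thus above the WT males. The log2 fold change was 2.86 ± 0.67 (edgeR adjusted p = 1). Oasl2 stood at 9.91 and 2.20 CPM against 0.312 to 1.08 in WT cells (3.02 ± 0.64, edgeR adjusted p = 0.839). Oasl1 stood at 4.00 and 1.08 CPM against 0.0624 to 0.555 (3.10 ± 0.80, edgeR adjusted p = 1).

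Oas1g, Oas2 and Oas3, barely detected in WT S1 cells, were tested at S1 only through their Nprl3-/- counts. Their p-values were the lowest of the 8, but cannot be read apart from that filter. Oas1g held 82 and 46 counts in Nprl3-/- cells and 1 to 5 in WT cells (4.24 ± 0.59, edgeR adjusted p = 0.402). Oas2, the middle-sized synthetase, held 61 and 43 against 0 to 6 (3.67 ± 0.69, edgeR adjusted p = 0.641). Oas3 held 50 and 10 against 0 to 2 (4.66 ± 0.93, edgeR adjusted p = 0.658). The libraries with 0 counts, WT embryo 0 for Oas2 and WT embryo 8 for Oas3, allow levels of up to 0.0937 and 0.0616 CPM at 3 counts. Oas1b and Oas1c had the smallest differences of the 8, 1.28 ± 0.36 and 1.69 ± 0.52 (edgeR adjusted p = 1 for both).

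Across 14039 genes at S1, 1 was called, Nprl3, or 0.00712%, and 0 of the 8 members. Of the 5 members whose WT mean alone passed the filter, 5 had an unadjusted p under 0.05 (edgeR's quasi-likelihood test), as had 355 of all genes tested. Of the same 5, DESeq2 called Oas1a and Oasl2, where it called 0.321% of all genes. Oas1g, Oas2 and Oas3, which entered through their Nprl3-/- counts, also had an unadjusted p under 0.05 and were called by DESeq2. When WT embryos 0 and 8, with low granulocytic markers at S1, were left out, the 8 log2 differences were 1.01 (Oas1b) to 4.13 (Oas3), with Oas1a at 2.15 ± 0.35, and edgeR called 0 of 8. In the same fit at S3, Oas1a was 3.50 ± 0.51 (edgeR adjusted p = 0.0902) and 0 members were called.

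**Figure D3:**
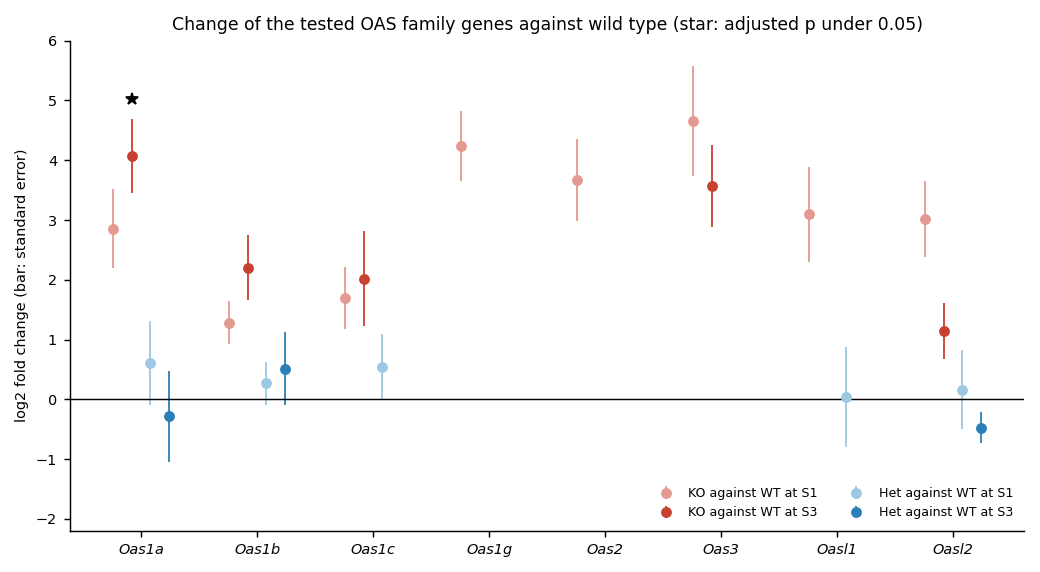
Log2 fold change of the tested OAS family genes against WT, with standard errors, for Nprl3-/- (KO) and Nprl3+/- (Het) at each stage; the star marks an adjusted p under 0.05. Where both contrasts were tested, the KO points lie between 1.28 and 3.10 at S1 and between 1.15 and 4.07 at S3, and the Het points of both stages lie between -0.48 and 0.60.

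Nprl3-/- and WT embryos were also compared within a sex, over the 5 members at S1 and 3 at S3 whose WT mean alone passed the filter. The Nprl3-/- female lay above both WT females for 5 of 5 at S1 (30.8% of all genes tested) and 3 of 3 at S3 (26.2%). The Nprl3-/- male lay above both WT males for 5 of 5 at S1 (30.0% of all genes) and 2 of 3 at S3 (33.3%), the exception being Oasl2. For Oas1a, the log2 ratio to the mean of the WT embryos of the same sex was 2.55 (female) and 3.66 (male) at S1, and 3.82 (female) and 4.74 (male) at S3. Both WT males are the embryos low in granulocytic markers at S1. With sex in the edgeR fit, Oas1a, Oas1b and Oas3 were called at S3, where 4.63% of all genes were called. At S1 Oas1a, Oas1g, Oasl1 and Oasl2 were called with sex in the fit, where 0.150% of all genes were. Of these, Oas3 at S3 and Oas1g at S1 passed the filter only through their Nprl3-/- counts. The female Nprl3-/- embryo 2 was above the male embryo 9 for 8 of 8 members tested at S1 (52.1% of all genes) and 5 of 5 at S3 (53.0%). With 1 embryo of each sex, sex and embryo cannot be told apart.

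Among these markers of other cells, the macrophage sums differed between Nprl3-/- and WT cells, whereas the hepatoblast and megakaryocyte sums overlapped. The macrophage list (15 genes, 13 tested) summed to 70.4 and 71.6 CPM in Nprl3-/- S1 cells against 30.0 to 57.0 in WT S1 cells. This sum was led by Lyz2 (1.05 ± 0.47, edgeR adjusted p = 1), whereas 4 of 13 tested macrophage genes lay above 0 and their median log2 difference was -0.35. At S3 the order of the sums was the opposite, 22.9 and 38.1 against 46.9 to 99.9 CPM, and 0 of 13 tested macrophage genes lay above 0 there. Of these, 3 were called lower, where 0.559% of all genes were called: Marco (-2.58, edgeR adjusted p = 0.0242), Fcna (-1.89, 0.0242) and Lyz2 (-1.69, 0.0458). The hepatoblast list (12 genes, led by Afp) summed to 71.6 and 199 CPM in Nprl3-/- S3 cells against 166 to 770 in WT S3 cells. In Nprl3+/- S3 cells it summed to 120 and 159 CPM. Megakaryocyte markers summed to 60.8 and 115 CPM against 58.0 to 99.0 at S3. The lymphoid markers Cd3e and Ncr1 had no count in any group. The part of these cells in the OAS levels was not tested.

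No member was called between heterozygous and WT embryos without sex in the fit. At S1 Oas1a stood at 3.45 (embryo 3) and 7.61 CPM (embryo 4), inside or just above the WT range, with a log2 fold change of 0.60 ± 0.70 (edgeR adjusted p = 0.905). Both Nprl3+/- embryos were male and lay above both WT males, at 1.84 and 0.966 CPM. With sex in the fit the difference was 1.95 ± 0.44 in DESeq2, which called it (adjusted p = 0.000489) and 5.90% of all genes, and 1.96 ± 0.45 in edgeR, which did not (adjusted p = 0.0542). These WT males had granulocytic sums of 204 and 116 CPM at S1, against 1560 and 1570 in Nprl3+/- cells, and without both of them the difference was -0.11, with no sex term since the WT embryos left were female. At S3 it stood at 0.778 and 1.48 CPM (-0.29 ± 0.76, edgeR adjusted p = 0.949), and the difference turned to 0.84 (DESeq2) and 0.76 (edgeR) with sex in the fit, uncalled. Oasl2 was at 15.3 and 15.2 CPM at S3 against 14.2 to 29.7 in WT cells (-0.48 ± 0.26, edgeR adjusted p = 0.901). Oas2 had 0 counts in both Nprl3+/- S3 libraries, which allows up to 0.167 and 0.154 CPM. Against WT, edgeR called 0 of 5 members tested at S1 (0% of all genes called) and 0 of 3 at S3 (0% likewise), with 0 members at an unadjusted p under 0.05 at either stage, and DESeq2 without sex also called 0.

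Nprl3-/- cells were also compared with Nprl3+/- cells, whose granulocytic markers at S1 were like theirs. Of the 5 members whose Nprl3+/- mean alone passed the filter at S1 (Oas1a, Oas1b, Oas1c, Oasl1 and Oasl2), 5 were higher in both Nprl3-/- libraries, as were 17.9% of all genes tested. At S3, 3 of 3 such members (Oas1a, Oas1b and Oasl2) were, against 22.5% of all genes. Oas1g, Oas2 and Oas3 at S1, and Oas1c and Oas3 at S3, passed the filter here only through their Nprl3-/- counts. At S1 edgeR called 0.0434% of 13814 genes and 0 of the 5 members. Oasl1 (3.07 ± 0.65, adjusted p = 0.244), Oasl2 (2.89 ± 0.73, 0.445) and Oas1a (2.26 ± 0.40, 0.143) missed the threshold in that fit. Oas1g, admitted by its Nprl3-/- counts of 82 and 46 against 1 and 1, was called (5.78 ± 0.72, edgeR adjusted p = 0.0435). At S3 Oas1a was called at 4.36 ± 0.41 (edgeR adjusted p = 0.0211), 1 of the 3 members, where 0.159% of 11345 genes were called. Without Nprl3+/- embryo 3 or 4 no member passed at S3. At S1 no member passed without embryo 3, and without embryo 4 Oas1a passed in place of Oas1g, with 0.0714% of all genes called. When 1 Nprl3-/- embryo was left out, the lone remaining library was assumed to vary like the others, and far more genes passed. Without embryo 2, 3 of the 5 members were called at S1 (10.6% of all genes) and 2 of the 3 at S3 (24.6%). Without embryo 9, 3 of the 5 were called at S1 (1.50% of all genes) and 3 of the 3 at S3 (9.21%). This comparison shares its Nprl3-/- libraries with the one against WT.

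The maturation step was examined in WT cells, S3 against S1 of the same 4 embryos. Oasl2 rose from 0.312, 1.08, 1.07 and 0.514 CPM (embryos 0, 1, 5 and 8) to 23.6, 14.2, 29.7 and 20.8 CPM. Every embryo shared the direction, and the log2 fold change was 4.95 ± 0.41 (adjusted p = 3.59e-06, edgeR quasi-likelihood test, Benjamini-Hochberg). Oas1b rose from between 0.514 and 0.933 CPM to between 1.31 and 5.40 (1.77 ± 0.50, edgeR adjusted p = 0.0103). Oas1a went from 1.84, 5.55, 6.42 and 0.966 CPM at S1 to 1.06, 1.07, 3.30 and 0.207 CPM at S3. It was lower at S3 in 4 of 4 embryos, by 1.29 ± 0.73 on the log2 scale without pairing (edgeR adjusted p = 0.142), and with the replicate block by embryo it passed at -1.42 (edgeR adjusted p = 0.00692), in a fit that called 69.6% of all genes. Oas1c did not pass (0.21 ± 0.72, edgeR adjusted p = 0.809). Of 4 members tested, 2 were called, in a comparison where 65.6% of 13514 genes were called, so the share is no mark of the family.

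In Nprl3-/- cells Oasl2 was also higher at S3 (75.9 and 18.7 CPM) than at S1 (9.91 and 2.20). Oas1a kept overlapping values in these embryos, 34.9 and 17.8 CPM at S1 and 30.9 and 16.8 at S3. Oasl1 went from 4.00 and 1.08 CPM at S1 to 0.308 and 0.0535 at S3, and Oas2 from 1.497 and 0.908 to 0.247 and 0.107. The difference of the Nprl3-/- effect between S3 and S1 was -3.03 ± 1.33 for Oasl1, -2.39 ± 1.13 for Oas1g, -1.88 ± 0.90 for Oasl2 and 1.21 ± 1.07 for Oas1a. The S3 side was near the floor for Oasl1 (5 and 1 counts in Nprl3-/-, 1 to 6 in WT libraries). It was low for Oas1g too (11 and 9, against 0 to 11), so depth limits both differences. For this difference edgeR called 0 of 7 members tested and 0.00742% of 13485 genes, and DESeq2 also called 0 members. In edgeR 1 of the 7, Oasl1, had an unadjusted p under 0.05, as had 420 of all genes tested. Of the 7, only Oas1a, Oas1b and Oasl2 had a WT mean that alone passed the filter at both stages. With the replicate block by embryo, 0 of 7 were again called, with the same 0.00742% of genes. There Oasl2 differed by -1.84 ± 0.50 (edgeR unadjusted p = 0.00435, adjusted p = 0.803) and Oas1a by 1.35 ± 0.43 (unadjusted p = 0.0109, adjusted p = 1). Oas1g and Oasl1, with the low S3 counts given above, also had an unadjusted p under 0.05. The share of all genes under 0.05 is not given for this fit.

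Within each embryo, the change from S1 to S3 was taken on log2 of CPM plus 0.05. Oas1a changed by -0.18 (embryo 2) and -0.077 (embryo 9) in Nprl3-/- cells, and by -0.77, -2.31, -0.95 and -1.98 in WT embryos 0, 1, 5 and 8. Oasl2 changed by 2.93 and 3.06 in Nprl3-/- cells, and by 6.03, 3.65, 4.73 and 5.21 in the same WT embryos. Neither gene overlapped between the genotypes, whereas Oas1b did. These are 2 of the 3 members whose WT mean alone passed the filter at both stages, and 13.1% of all genes tested had no overlap in either direction.

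Of the other Oas1 paralogs, Oas1d, Oas1f and Oas1h had no count in any library, and Oas1e had 3 counts, all in the S3 library of Nprl3-/- embryo 2.

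Abce1, Pde12 and Akap7, which act on oligoadenylate signalling or turnover, passed the test in no comparison between genotypes. Abce1, which also recycles ribosomes, differed by 0.11 ± 0.13 between Nprl3-/- and WT cells at S3. Pde12, which degrades 2′-5′ oligoadenylate, differed by 0.31 ± 0.16, and Akap7, which has an oligoadenylate phosphodiesterase domain, by -0.24 ± 0.17. In each comparison between genotypes edgeR called 0 of these 3 genes, and 0 had an unadjusted p under 0.05.

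All 3 passed with maturation in WT cells, where 65.6% of genes did. Akap7 rose from between 9.18 and 20.4 CPM at S1 to between 195 and 246 CPM at S3 (3.97 ± 0.28, edgeR adjusted p = 1.31e-06). Abce1 fell by 0.90 ± 0.17 (edgeR adjusted p = 0.000987) and Pde12 by 0.63 ± 0.14 (edgeR adjusted p = 0.00251).

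**Figure D4:**
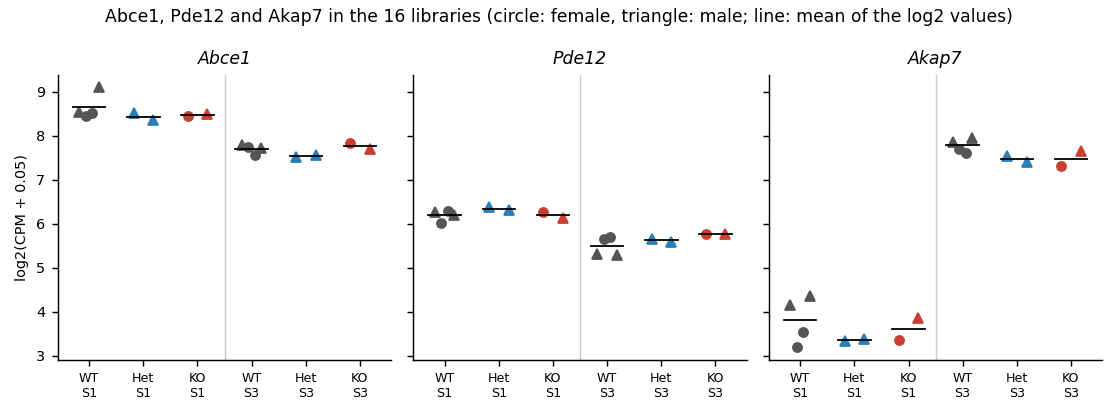
Level of Abce1, Pde12 and Akap7 in the 16 libraries as log2 of CPM plus 0.05, by genotype and stage (circles female, triangles male embryos; lines, means of the log2 values). The S3 points of Akap7 lie above all S1 points, those of Abce1 and Pde12 lie below, and the genotypes lie close together within a stage.

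Besides the family, 15 genes of the interferon receptor, of its signalling factors and of the cytosolic RNA sensors were examined. At S3, 4 of 14 tested rose in Nprl3-/- cells, and 0 fell, where 0.559% of all genes were called. Ifih1, which encodes the double-stranded RNA sensor MDA5, rose by 1.603 ± 0.187 (edgeR adjusted p = 0.0153). Adar, an editor of double-stranded RNA, rose by 1.53 ± 0.23 (0.0348), Irf9 by 1.39 ± 0.22 (0.0392), and Irf7, the mRNA that Oasl1 acts on, by 2.81 ± 0.45 (0.0419), all adjusted p of the same edgeR fit. The receptor chains Ifnar1 and Ifnar2 differed by -0.23 ± 0.22 and 0.06 ± 0.14. At S1 edgeR called 0 of the 15. Of 21 interferon ligand genes, 2 had any count, at most 5 in a library.

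Over the 16 libraries, each gene centred within its stage, the genes whose log2 CPM was most like the mean of the 7 members passing the filter were Tgtp2, Rtp4, Dhx58, Usp18, Rigi, Isg15, Xaf1, Irf7, Ifitm3 and Parp9, with Pearson's r of 0.941 to 0.965. Oas1a had an r of 0.956 with the mean it contributes to and Oasl1, the lowest of the 7, 0.713. These values describe 16 libraries of 8 embryos and share the contrast between genotypes.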

How the data were processed

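Read counts per gene were deposited for 16 libraries. Per the labels, polyA RNA of sorted cells was SMARTer-amplified; per the submitters' processing notes, reads were aligned with STAR 2.7.9 (mm39), and pairs were counted by the authors with featureCounts 1.6.4 on Ensembl gene models, without strand; multi-mapping pairs were left out. A further 4 library columns were not used. Symbols of 54749 of 55416 genes came from GENCODE.

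Within each comparison, genes with a mean above 10 TMM-normalised counts were tested with edgeR 4.0.16 (quasi-likelihood, R 4.3.3), Benjamini-Hochberg threshold 0.05, on the libraries compared only. CPM and RPKM used effective library sizes over 16 libraries and merged exon length. DESeq2 1.42.0, other scalings, sex, no filter and leaving out each embryo were alternatives. The tests were checked on simulated counts. Each library is 1 embryo, and limits at 0 counts cover counting error only.

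Embryo numbers pair S1 with S3 by animal, as the titles give them; the deviations of paired libraries correlated at 0.0341 to 0.462 in WT embryos. The members and lists were chosen with earlier results of these data known. Named genes were the 8 members, other Oas1 paralogs, Abce1, Pde12 and Akap7, the sensor-list genes with the 4 smallest p at S3 (Irf7 was named after its values were seen), and the 10 genes most like the members. Some genes of these lists are not reported here, and counts leave them out. Of each marker list the leading and defining genes could be named.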

Additional observations from a re-analysis of the deposited data

Results flagged for a closer look

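Among the 16 sets of 4 WT values examined (8 genes at each stage), 1 held a library far from the other 3. For Oas1b in WT S3 cells, embryo 5 stood at 5.40 CPM while the others lay between 1.31 and 1.48, so that 0.959 of the whole range was the gap to the nearest value. The limit used for 4 values, which this gap exceeded, is one that chance passes in about 1 in 20 sets. Embryo 5 was also the highest WT S3 library for 7 of the 8 genes, with Oasl1 as the exception. Some of the 7 had few counts, Oas2 at most 5 in a WT S3 library, and the share of all genes is not given.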

How the results depend on the processing

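The number of members called changed with the test and the libraries. For Nprl3-/- against WT at S3 (1 called), the newer edgeR method gave 2, DESeq2, DESeq2 with sex and edgeR with sex gave 3 each, no filter gave 4, leaving out 1 embryo gave 0 to 3, and leaving out WT embryos 0 and 8, chosen after seeing the data, gave 0. At S1 (0 called), DESeq2 gave 5 (0.321% of all genes called), DESeq2 with sex 5, edgeR with sex 4 (0.150%) and no filter 1. Oas1g, Oas2 and Oas3, among those called by DESeq2, passed the filter there only through their Nprl3-/- counts. Nprl3+/- against WT at S1 went from 0 to 1 (Oas1a) with DESeq2 and sex. For Nprl3-/- against Nprl3+/- at S3 (1 called), DESeq2 and edgeR with sex gave 3, no filter 5, the fit of all 16 libraries 0, and leaving out 1 embryo 0 to 5. At S1 (1 called), the newer edgeR method, DESeq2 with sex, upper-quartile scaling and the fit of all 16 libraries gave 0, DESeq2 2, edgeR with sex 5, no filter 6, and leaving out 1 embryo 0 to 6. Upper-quartile scaling and DESeq2 size factors put Oasl2 in Nprl3+/- S3 cells at 2.88 and 2.51 RPKM (main 2.39). Over all genes, the 66 called at S3 in Nprl3-/- against WT became 259 with DESeq2, 547 with edgeR and sex, 356 with no filter and 11 to 42 with 1 embryo left out, and the 1 called at S1 became 45 with DESeq2. For several of these fits the share of all genes called is not given, so their counts of members cannot be set against it. The cause of these changes was not tested.

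Some signs turned. Leaving out 1 embryo, Oasl2 at S3 in Nprl3-/- against WT ranged from -0.18 to 1.83. In Nprl3+/- against WT at S3, Oas1a was 0.84 with DESeq2 and sex and 0.76 with edgeR and sex, and with 1 embryo left out it ranged from -0.85 to 0.55 and Oas1b from -0.23 to 1.32. In Nprl3+/- against WT at S1, Oasl1 was -0.0068 with the newer method. Without WT embryos 0 and 8, Oas1a, Oasl1 and Oasl2 were -0.11, -0.75 and -0.39. With 1 embryo left out, they ranged from -0.088 to 1.05, -0.48 to 0.45 and -1.06 to 0.82. The difference between stages ranged from -0.32 to 0.89 for Oas1c and from -1.88 to 0.58 for Oas3. With the replicate block, Oas1c in WT S3 against S1 was -0.12; the block changed no other call than that of Oas1a, and gave 3 members called (2 without it).

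Depth limits Oas1g, Oas2, Oas3 and Oasl1, with WT counts mostly under 10, and 2 Nprl3-/- embryos limit every comparison with them.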
